A study of Homo sapiens with 23 samples.

Results

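The S100 alarmins and antimicrobial proteins of the epidermis were followed in 8 genes (S100A7, S100A7A, S100A8, S100A9, S100A12, LCN2, DEFB4A and RNASE7) of the 27589 genes with a deposited value. They were taken by gene symbol, and all 8 passed the filter on low values, as did 16063 genes in all. RNA was measured in subcutaneous xenografts grown from SCC-13 cells, a long-used human line of squamous cell carcinoma of the skin. KO tumours were labelled as knockout of human Flower (hFWE, gene symbol CACFD1), a transmembrane protein, and came from the lines 2F7 (3 tumours), 2B8 (4) and 1G10 (4). WT tumours were labelled hFWE WT and came from the lines 5B2, 6C9 and 6C10 (4 each). In both genotypes the cells were injected in Matrigel into NCG mice, which lack functional lymphocytes but keep myeloid cells, and tumours were harvested on day 26. The labels name each line by a code and do not say whether it is a single clone, and every line has 1 genotype. How many tumours a mouse carried is likewise unstated, so p-values refer to the spread between these tumours alone.

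S100A8 and S100A9 form the heterodimer calprotectin, which binds calcium and withholds zinc and manganese from microbes. With S100A12 they are classed as alarmins, proteins that signal damage through receptors such as TLR4 and RAGE once they leave the cell. S100A7 (psoriasin) and its close relative S100A7A (koebnerisin) are zinc-binding proteins of stressed keratinocytes, LCN2 (lipocalin 2) captures the iron carriers of bacteria, RNASE7 is a secreted ribonuclease that kills microbes, and DEFB4A encodes human beta-defensin 2. Normal epidermis makes little of most of these, and inflammation, wounding and squamous carcinoma raise them. Neutrophils are the other large source of S100A8, S100A9 and S100A12, and the mouse genome has no S100A12 gene.

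Estimated reads assigned to genes were 13082214 to 22093357 in 21 libraries. WT tumours 5532 and 5533, both of line 6C9, had 7011069 and 2037751 reads. The median correlation of 5533 with the rest was 0.763, and no other library was below 0.943. In 5533 genes with under 1000 merged exon bases lay a median of 1.36 log2 units above the median of the other tumours, and genes with 4000 or more lay at -0.60. It held the highest WT value of 7 of the 8 genes. Several results on the 8 genes, but not all, are also given without it. KO tumour 5549 of line 1G10 had 16354662 reads and the lowest KO value for 7 of the 8 genes. How many of all tested genes had their highest WT value in 5533 or their lowest KO value in 5549 was not counted. CACFD1 itself averaged 276 ± 58.9 (SD, n = 11) in KO tumours and 373 ± 47.1 (SD, n = 12) in WT tumours, and an edit within the transcript is not visible at this level.

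The 5 S100 genes lie within 102.8 kb of chromosome 1 (153357854 to 153460651, hg38), in the epidermal differentiation complex, where each is annotated as protein coding. In order along the chromosome they are S100A9 (ENSG00000163220) at 153357854 to 153361023 on the plus strand, S100A12 (ENSG00000163221) at 153373711 to 153375621 on the minus strand, and S100A8 (ENSG00000143546) at 153390032 to 153391073 on the minus strand. Next come S100A7A (ENSG00000184330) at 153416520 to 153423222 on the plus strand, and S100A7 (ENSG00000143556) at 153457744 to 153460651 on the minus strand. The others are LCN2 (ENSG00000148346) on chromosome 9 at 128149071 to 128153453 on the plus strand, DEFB4A (ENSG00000171711) on chromosome 8 at 7894677 to 7896716 on the plus strand, and RNASE7 (ENSG00000165799) on chromosome 14 at 21042316 to 21044234 on the plus strand. Levels were set in order per kilobase of merged exons (GENCODE release 29 lengths). S100A9 came first, at 103317 ± 30339 normalized units per kb in KO tumours and 178024 ± 146061 in WT tumours (SD, n = 11 and 12), and it was above S100A7 in 23 of 23 tumours. S100A7 followed at 51183 ± 16948 per kb in KO and 108742 ± 108259 in WT tumours, and it exceeded S100A8 in 20 of 23 tumours. S100A8 had 45579 ± 14380 per kb in KO and 75212 ± 59026 in WT tumours. The order of these 2 depends on the merged lengths, 536 bases for S100A7 and 1006 for S100A8. By deposited value S100A8 was the higher, with a mean of 61406 over all tumours against 43530 for S100A7. A gap of more than 10-fold per kb separated these 3 genes from the rest. It also depends on length, since S100A7A has 4457 merged bases and a deposited mean of 8949. S100A7A (1780 ± 681 per kb in KO, 2217 ± 525 in WT), RNASE7 (968 ± 536 in KO, 1855 ± 1014 in WT) and S100A12 (811 ± 302 in KO, 1784 ± 1389 in WT) overlapped within their spread. S100A7A exceeded RNASE7 in 17 of 23 tumours and RNASE7 exceeded S100A12 in 12 of 23. DEFB4A (251 ± 151 per kb in KO, 212 ± 150 in WT) and LCN2 (59.4 ± 62.1 in KO, 135 ± 93.0 in WT) were lowest, with DEFB4A above LCN2 in 18 of 23 tumours. Together the 8 genes took 1.06% ± 0.27 of all signal in KO tumours and 1.71% ± 1.00 in WT tumours (1.43% ± 0.327 without 5533). Without 5533 the WT levels per kb were 136772 ± 31689 for S100A9, 78035 ± 21103 for S100A7, 58637 ± 14365 for S100A8, 2340 ± 318 for S100A7A, 1660 ± 794 for RNASE7, 1401 ± 431 for S100A12, 181 ± 109 for DEFB4A and 113 ± 53.2 for LCN2 (SD, n = 11), in the same order.

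In KO against WT tumours, 7 of the 8 genes had a lower fitted log2 mean in KO, against 45.8% of all tested genes. None of the 8 passed the adjusted threshold of 0.05 (limma, Benjamini-Hochberg over 16063 genes), where 1 gene in all was called (0.00623%). At an unadjusted p under 0.05, 6 of the 8 were lower in KO, against 6.63% of all tested genes, and 0 were higher, against 5.9%. The median log2 difference was -0.74 over the 8 genes and 0.03 over all tested genes. Without the shallow specimens 5532 and 5533, 7 of 8 were still lower and 3 of 8 (S100A7, S100A12 and LCN2) had an unadjusted p under 0.05, against 6.02% of all genes. Without KO specimen 5549 alone it was 4 of 8, against 4.99% of all genes, and without line 1G10 it was 2 of 8, against 3.56%. For 5 genes (S100A7, S100A8, S100A9, S100A12 and LCN2) every KO line mean lay below every WT line mean, which held for 8.87% of all genes; in 0 of 8 did every KO line mean lie above, against 9.77% of all genes. Their exact permutation p was 0.1, two-sided, the smallest that 3 against 3 lines can give. Without 5533 the mean of WT line 6C9 fell below KO line 2F7 for S100A7, S100A12 and LCN2, and their separation was lost. For S100A7 the 6C9 log2 values were 14.82, 14.21, 15.59 and, in 5533, 17.87, against a 2F7 mean of 15.12. Without 5532 as well, S100A8 and S100A9 also lost it. Their 6C9 values were then 15.28 and 15.09 for S100A8 and 15.75 and 15.56 for S100A9, against 2F7 means of 15.48 and 15.94. In bulk tumours, fewer cells of a type and less RNA per cell cannot be told apart.

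**Figure D1:**
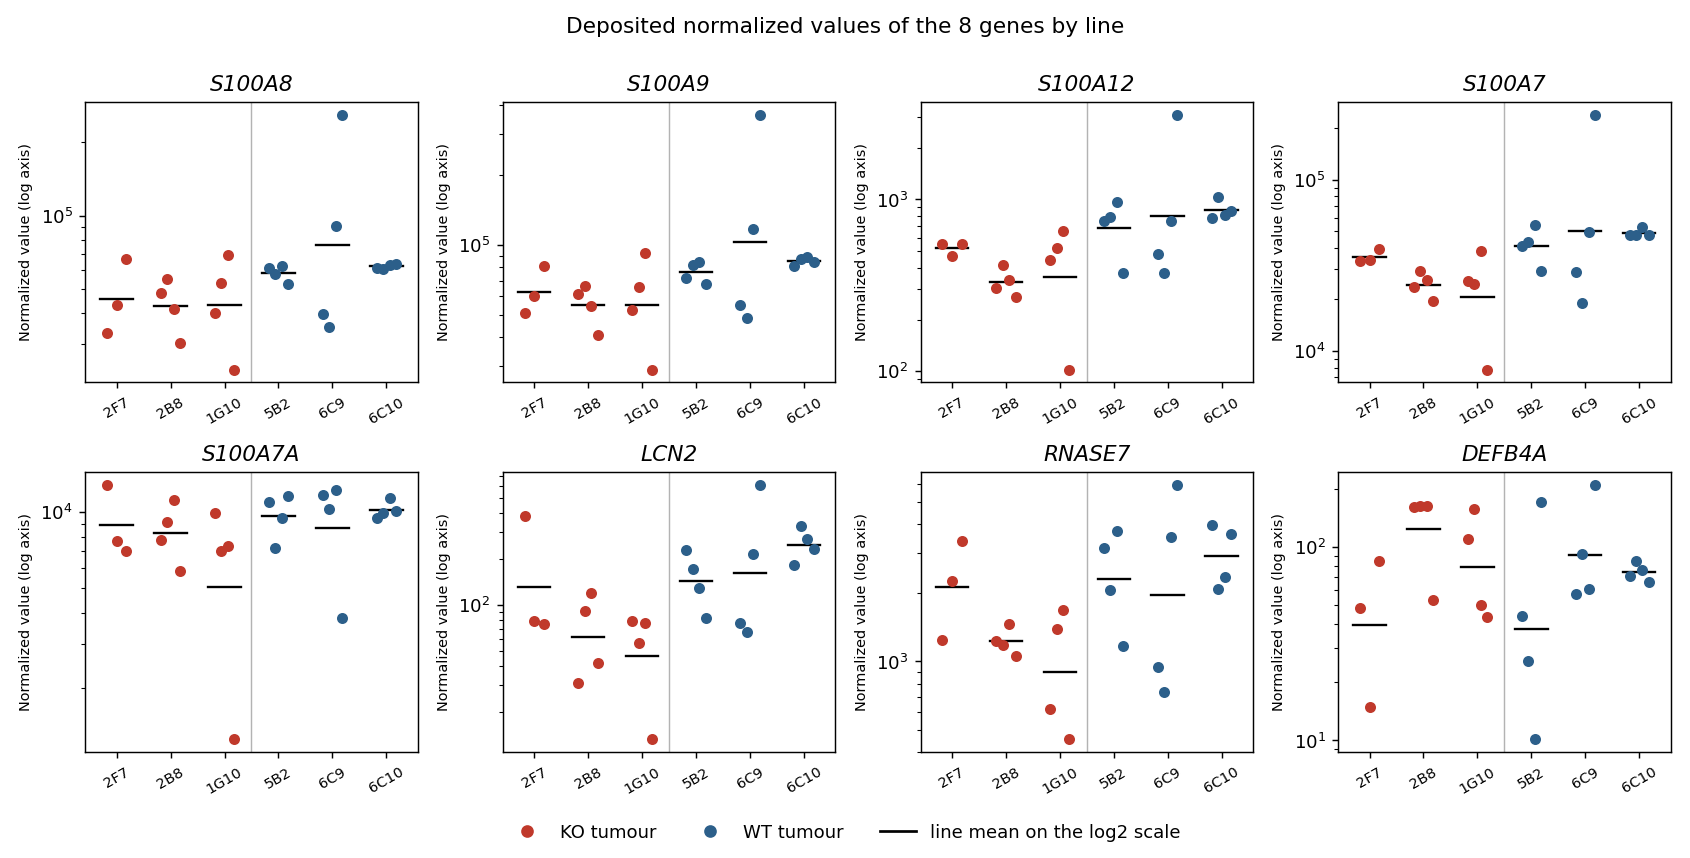
Deposited normalized value of each gene (log axis) in every tumour, by line, with KO lines to the left of the grey line and WT lines to its right; the bar is the line mean on the log2 scale. For S100A7 and S100A12 all 11 KO tumours lie below the WT median, the highest WT point is specimen 5533, and DEFB4A shows wide overlap.

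The calprotectin genes had high values in every tumour, with lower means in KO that did not pass the adjusted threshold. S100A8 had a lowest value of 23475, a median of 43223 and a highest value of 69507 in KO tumours, against 34963, 61271 and 259075 in WT tumours. Its log2 difference was -0.57 (SE 0.25, unadjusted p = 0.0330, adjusted p = 0.357, limma). S100A9 had a lowest value of 28959, a median of 60475 and a highest value of 92338 in KO tumours, against 48444, 83017 and 364548 in WT tumours. The log2 difference of S100A9 was -0.62 (SE 0.26, unadjusted p = 0.0237, adjusted p = 0.332, limma). The groups overlapped for both genes, with 9 of 11 KO tumours below the WT median for S100A8 and 10 of 11 for S100A9. Both differences shrank without specimen 5533, to -0.39 and -0.43, and without 5532 and 5533 they were -0.31 (p = 0.129) and -0.35 (p = 0.0821) by limma. The pair took 0.779% ± 0.205 of all signal in KO tumours and 1.21% ± 0.711 in WT tumours, where the highest share was 3.35% in 5533 and the mean without it 1.02% ± 0.243.

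S100A8 and S100A9 kept a nearly fixed ratio to each other. The log2 ratio of S100A9 to S100A8 averaged 0.39 ± 0.10 in KO tumours (range 0.27 to 0.60) and 0.43 ± 0.08 in WT tumours (range 0.24 to 0.52). The line means differed by -0.04 (exact permutation test, two-sided p = 0.4). Across the 23 tumours their log2 values had r = 0.991 and rho = 0.956, and r stayed at 0.975 without the tumours 5533 and 5549, the farthest from the median. Their transcripts shared no 50-base window, so reads would not be divided between them. The 250 bases before the start sites of the pair are printed from RefSeq (GRCh38.p14), since these genes moved together. Capitals mark the TATA box (TATAAA) and a match to the C/EBP-type motif TTNNGNAA, searched on both strands with no overlap between matches. S100A8 is chr1:153391074-153391323 on the minus strand and S100A9 is chr1:153357604-153357853 on the plus strand.
S100A8: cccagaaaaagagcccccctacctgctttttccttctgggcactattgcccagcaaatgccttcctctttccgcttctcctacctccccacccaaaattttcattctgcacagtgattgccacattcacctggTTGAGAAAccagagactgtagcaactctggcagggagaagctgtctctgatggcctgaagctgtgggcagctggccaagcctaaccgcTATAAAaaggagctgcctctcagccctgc
S100A9: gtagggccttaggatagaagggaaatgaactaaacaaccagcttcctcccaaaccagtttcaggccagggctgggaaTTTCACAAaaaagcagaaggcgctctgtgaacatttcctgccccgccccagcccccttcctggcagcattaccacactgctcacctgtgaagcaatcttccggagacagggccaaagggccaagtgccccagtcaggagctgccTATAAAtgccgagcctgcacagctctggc
TATAAA was found 29 bases before the start in both, and 10.7% of 35116 promoter windows of this length hold it. The C/EBP-type match lay at -117 in S100A8 and at -173 in S100A9, and 33.2% of windows hold one. RefSeq gives S100A8 2 other starts, of which the one at 153391188 has neither motif before it, and the one at 153390976 has C/EBP-type matches at -214 and -78 and TATAAA at -126; the start printed is the one in the deposited table. C/EBP factors are known regulators of myeloid and keratinocyte genes, but a match is only a description of the letters.

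**Figure D2:**
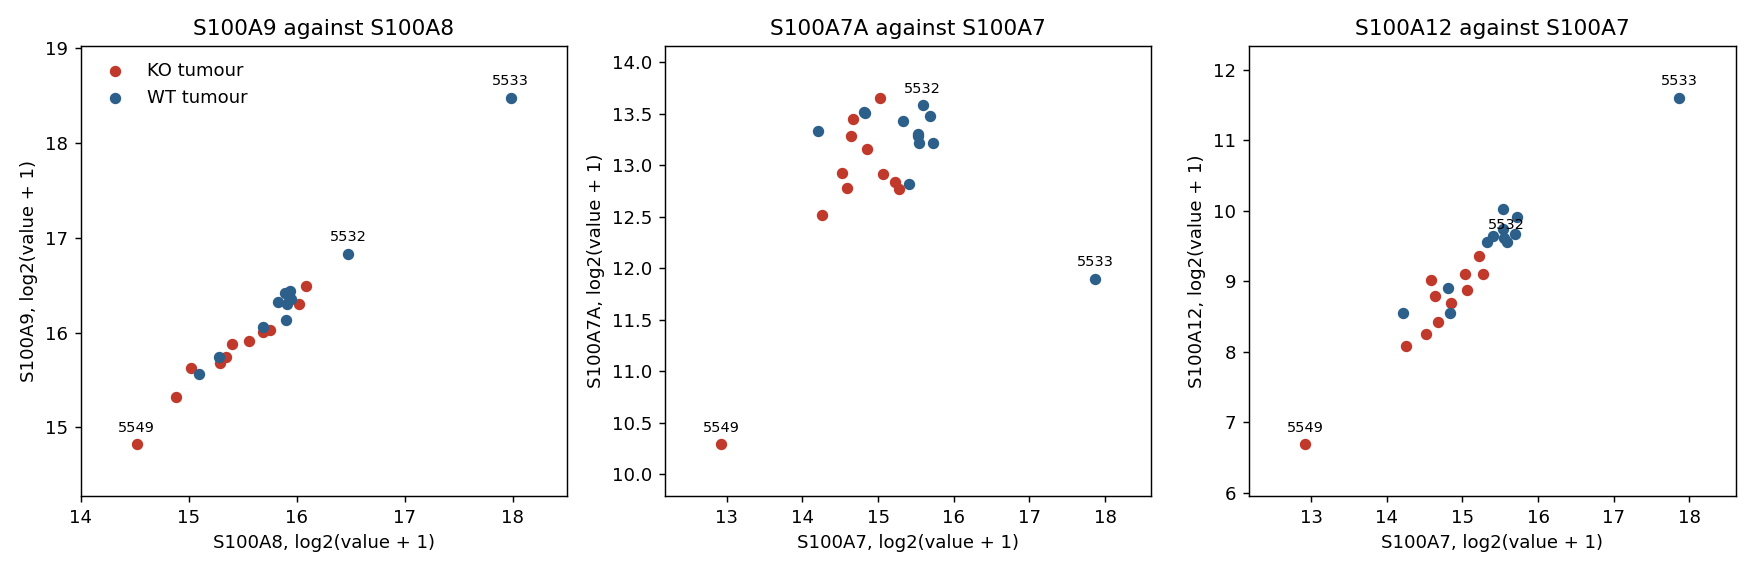
Log2(value + 1) of 3 gene pairs in each tumour, KO in red and WT in blue, with specimens 5532, 5533 and 5549 named. S100A9 follows S100A8 (r = 0.991) and S100A12 follows S100A7 (r = 0.966), while S100A7A against S100A7 has r = 0.250, with 5533 high for S100A7 and low for S100A7A.

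S100A12, a ligand of RAGE known from granulocytes, was present at moderate level in every tumour and had the smallest p of the 8 genes. In KO tumours it was 551, 470 and 550 in line 2F7, 305, 415, 342 and 271 in 2B8, and 443, 519, 656 and 102 in 1G10. In WT tumours it was 752, 796, 966 and 373 in line 5B2, 481, 372, 753 and 3106 in 6C9, and 783, 1038, 814 and 859 in 6C10. Every one of the 11 KO values was under the WT median, which held for 2.78% of tested genes, and 9 of 12 WT tumours lay above every KO tumour. The exceptions were WT specimens 5529, 5530 and 5531. The mean was 420 ± 157 in KO and 924 ± 719 in WT tumours (SD, n = 11 and 12), with a log2 difference of -1.03 (SE 0.30, unadjusted p = 0.00254, adjusted p = 0.229, limma). It was -0.84 without 5533, -0.81 (p = 0.0112, limma) without 5532 and 5533, and -0.61 when 5549 was left out as well. The 250 bases before its start (chr1:153375622-153375871, minus strand) are printed because they hold 3 kinds of motif close together. Capitals mark C/EBP-type matches at -94 and -77, an AP-1 match (TGANTCA, both strands) at -57, and TATAAA at -8.
S100A12: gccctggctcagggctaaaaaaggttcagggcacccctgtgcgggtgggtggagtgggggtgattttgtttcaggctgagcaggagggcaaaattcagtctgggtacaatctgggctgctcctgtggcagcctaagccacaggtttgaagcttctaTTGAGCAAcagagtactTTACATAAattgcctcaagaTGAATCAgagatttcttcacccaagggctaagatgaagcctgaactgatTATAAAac
An AP-1 match is in 6.57% of the promoter windows. Among the 8 genes it was also found in LCN2 (-52) and RNASE7 (-102), whose RefSeq start differs from the start in the deposited table, and in no window of the other 4 genes searched; DEFB4A was not searched.

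S100A7 was also lower in all 11 KO tumours than the WT median, and its near copy S100A7A was only weakly correlated with it over the tumours. S100A7 had 33413, 34163 and 39507 in KO line 2F7, 23573, 29467, 26124 and 19529 in 2B8, and 25493, 24533, 38208 and 7765 in 1G10. In WT tumours it had 41088, 43330, 54032 and 29169 in line 5B2, 28838, 18932, 49287 and 239336 in 6C9, and 47822, 47391, 52841 and 47363 in 6C10. As for S100A12, 9 of 12 WT tumours lay above every KO tumour, and the exceptions were again 5529, 5530 and 5531. The log2 difference was -0.87 (SE 0.31, unadjusted p = 0.0101, adjusted p = 0.287, limma). It was -0.64 without 5533, -0.59 (p = 0.0328, limma) without 5532 and 5533, and -0.42 when 5549 was left out too.

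S100A7A had a lowest value of 1254, a median of 7726 and a highest value of 12898 in KO tumours, against 3815, 10207 and 12260 in WT tumours. The groups overlapped widely, and the log2 difference was -0.43 (SE 0.28, unadjusted p = 0.132, adjusted p = 0.500, limma). Without KO specimen 5549 it was -0.18, and without WT specimen 5533 it was -0.55. The correlation of S100A7A with S100A7 over the 23 tumours was weak, with r = 0.250 (permutation p = 0.181) and rho = 0.153. Within KO tumours r was 0.845 and within WT tumours -0.812, and without 5532, 5533 and 5549 it was 0.197 (n = 20), so both within-genotype values rest on single libraries. The log2 ratio of S100A7A to S100A7 averaged -1.86 ± 0.49 in KO and -2.29 ± 1.27 in WT tumours, with a difference of line means of 0.42 (exact permutation p = 0.1). Without 5533, whose ratio was -5.97, the difference was 0.04 (exact permutation p = 0.8).

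The windows before the start sites of these near copies are almost the same, and they are printed to set beside their weak correlation over the tumours. They lie at chr1:153460652-153460901 on the minus strand for S100A7 and chr1:153416270-153416519 on the plus strand for S100A7A (RefSeq, GRCh38.p14). Of 250 bases, 241 (96.4%) were the same, and capitals mark the 9 that differ.
S100A7: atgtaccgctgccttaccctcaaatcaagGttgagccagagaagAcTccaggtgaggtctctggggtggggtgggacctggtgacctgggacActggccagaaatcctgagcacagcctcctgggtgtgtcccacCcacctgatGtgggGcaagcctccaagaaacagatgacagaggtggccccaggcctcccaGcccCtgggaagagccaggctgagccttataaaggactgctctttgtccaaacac
S100A7A: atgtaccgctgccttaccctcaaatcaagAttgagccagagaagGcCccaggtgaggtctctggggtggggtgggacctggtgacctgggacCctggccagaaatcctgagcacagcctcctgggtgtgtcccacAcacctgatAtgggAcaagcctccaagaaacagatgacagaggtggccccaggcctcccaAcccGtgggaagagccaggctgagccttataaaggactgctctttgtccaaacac
Both hold TATAAA 28 bases before the start, and neither holds an AP-1 or C/EBP-type match in this window. Their merged exons differ in length, with 536 bases in S100A7 and 4457 in S100A7A. Of the 50-base windows of the S100A7 transcript, 14.2% also occur in S100A7A, and of the 100-base windows 0%, so a part of the short reads could be assigned to either gene.

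LCN2 had the largest fitted difference of the 8 genes at a low level. In KO tumours it was 380, 79.2 and 75.6 in line 2F7, 30.9, 90.8, 121 and 42.0 in 2B8, and 78.4, 56.2, 76.0 and 13.3 in 1G10. In WT tumours it was 229, 173, 130 and 82.6 in line 5B2, 75.9, 66.4, 217 and 612 in 6C9, and 183, 328, 270 and 232 in 6C10. KO specimen 5538 of line 2F7 stood high, and 10 of 11 KO tumours lay below the WT median, which held for at least 10 of 11 in 7.61% of genes and in 5 of the 8. The log2 difference was -1.37 (SE 0.42, unadjusted p = 0.00312, adjusted p = 0.235, limma). It was -1.20 without 5533, -1.12 (p = 0.0203, limma) without 5532 and 5533, and -0.89 when 5549 was left out as well.

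RNASE7, the antimicrobial ribonuclease, had a lowest value of 454, a median of 1244 and a highest value of 3383 in KO tumours, against 734, 2749 and 5993 in WT tumours. The groups overlapped, with 10 of 11 KO tumours below the WT median and 5 of 12 WT tumours above every KO tumour. Its log2 difference was -0.89 (SE 0.34, unadjusted p = 0.0152, adjusted p = 0.304, limma). It was -0.76 without 5533 and -0.65 (p = 0.0854, limma) without 5532 and 5533. The line means overlapped, since KO line 2F7, at a log2 mean of 11.05, lay above WT line 6C9, at 10.93 (exact permutation p = 0.2).

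DEFB4A, in contrast to the other 7 genes, had no lower mean in KO. In KO tumours it was 48.1, 14.9 and 84.6 in line 2F7, 161, 163, 163 and 53.4 in 2B8, and 110, 157, 49.9 and 43.7 in 1G10. In WT tumours it was 43.7, 25.7, 10.1 and 170 in line 5B2, 56.9, 92.0, 60.7 and 210 in 6C9, and 71.1, 84.2, 76.0 and 65.8 in 6C10. The values spread more than 10-fold in each genotype and the groups overlapped throughout. The log2 difference was 0.27 (SE 0.44, unadjusted p = 0.539, adjusted p = 0.765, limma), and it turned to -0.12 without line 2B8 and -0.08 without line 5B2. These values are uncertain because DEFB4A has a near-identical copy, DEFB4B, and 70.4% of the 50-base windows of the DEFB4A transcript also occur in it. The sum of both copies averaged 116 ± 72.9 in KO and 92.5 ± 62.8 in WT tumours (SD, n = 11 and 12; exact permutation of line means, p = 0.7).

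The fitted differences were also taken line by line, and no difference among KO lines passed the test. In line 2F7 against the WT lines all 8 genes had a negative log2 difference, against 46.1% of all genes, with a median over the 8 of -0.46. RNASE7 in 2F7 turned positive without 5533 (0.026) and without 5532 and 5533 (0.26). In 2F7 0 of 8 had an unadjusted p under 0.05, where 1.1% of all genes were lower and 1.38% higher at that p. In line 2B8 7 of 8 were negative, against 44.6% of all genes, with a median over the 8 of -0.80. There 3 of 8 (S100A7, S100A12 and LCN2) were lower at an unadjusted p under 0.05, where 4.47% of all genes were lower and 3.72% higher. In line 1G10 7 of 8 were negative, against 47.2% of all genes, with a median over the 8 of -1.03. There 5 of 8 (the same 3 with S100A7A and RNASE7) were lower at an unadjusted p under 0.05, where 5.62% of all genes were lower and 4.03% higher. No gene of the 8 was called in any of these comparisons, where 0.0% of all genes were (limma, adjusted p). DEFB4A ranged most, with -0.66 (SE 0.61) in 2F7, 0.95 (SE 0.55) in 2B8 and 0.30 (SE 0.55) in 1G10. LCN2 followed, with -0.44 (SE 0.62) in 2F7, -1.52 (SE 0.55) in 2B8 and -1.93 (SE 0.55) in 1G10. S100A8 ranged least, with -0.51 (SE 0.42), -0.60 (SE 0.37) and -0.59 (SE 0.37) in 2F7, 2B8 and 1G10. Without 5532, 5533 and 5549 its 1G10 value was 0.042. The test among KO lines gave an unadjusted p of 0.142 for LCN2, 0.144 for RNASE7 and 0.108 for DEFB4A and at least 0.211 for the other 5, and the test among WT lines gave at least 0.181 for all 8 (limma F tests). At an unadjusted p under 0.05 stood 2.22% of all genes among KO lines and 10.3% among WT lines.

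**Figure D3:**
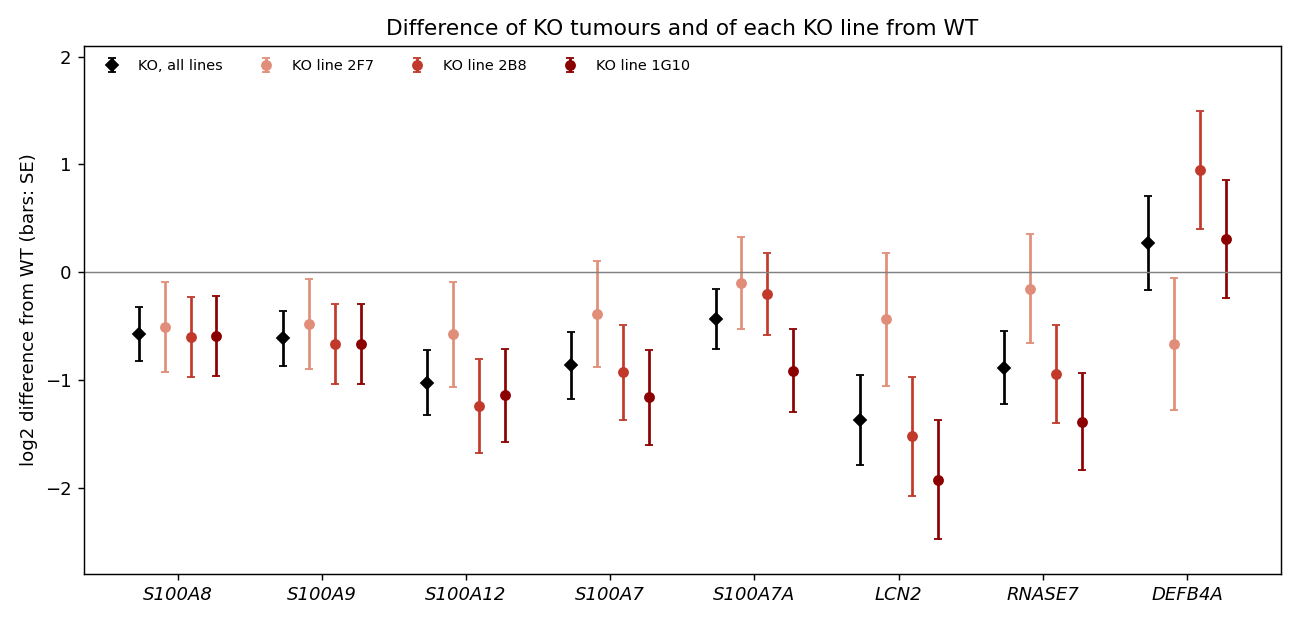
Fitted log2 difference from WT (limma, error bars SE) for all KO tumours and for each KO line, gene by gene. The KO value is negative for 7 genes and 0.27 for DEFB4A, and the line values run from -1.93 (LCN2 in 1G10) to 0.95 (DEFB4A in 2B8).

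The same WT tumours were low for most of these genes. In S100A7, S100A8, S100A9, S100A12, LCN2 and RNASE7 (6 of 8), the 3 lowest WT tumours were specimen 5529 of line 5B2 and specimens 5530 and 5531 of line 6C9. All 15 pairs among these 6 genes were correlated over the 23 tumours, with r between 0.651 and 0.991 and rho between 0.516 and 0.956 (100000 permutations, Benjamini-Hochberg over 28 pairs). These 6 genes were grouped by their values in the same tumours. Neither their shared low tumours nor such r values were counted over all genes. The largest adjusted p among the 15 pairs was 0.00166 for r and 0.0237 for rho, both for S100A8 with LCN2. Without 5532, 5533 and 5549 the range of r was 0.313 to 0.968 (n = 20), lowest again for S100A8 with LCN2, so that relation rests largely on those libraries. Within KO tumours r for these pairs ranged from 0.256 to 0.979 and within WT tumours from 0.737 to 0.994. DEFB4A was not correlated with any of the other 7 (r between -0.166 and 0.228, 0 of 7 below an adjusted 0.05). Without the 3 libraries its r with S100A7 was -0.484 and with S100A12 -0.477. The values of a tumour share 1 library and its scaling.

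**Figure D4:**
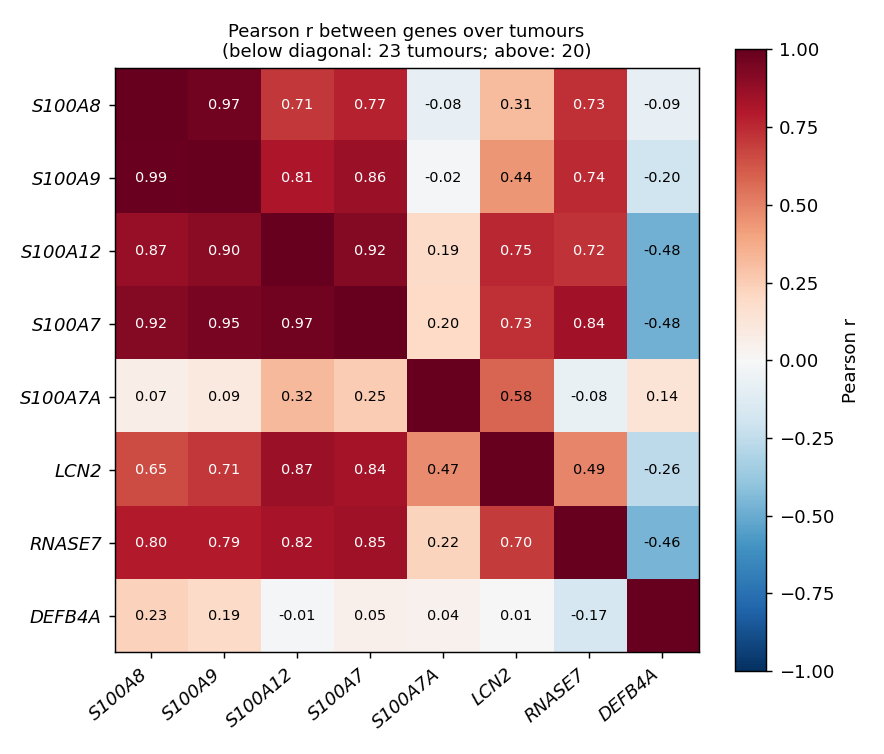
Pearson r of log2(value + 1) between the 8 genes, below the diagonal over 23 tumours and above it over the 20 left without specimens 5532, 5533 and 5549. S100A8, S100A9, S100A12, S100A7, LCN2 and RNASE7 form a block of positive values (0.651 to 0.991 over 23 tumours), while the S100A7A and DEFB4A rows hold lower values.

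The genes whose pattern over the 23 tumours was most like each of the 8 were found by Pearson r of log2 values over all tested genes. S100A7 was closest to CALML5 (r = 0.970), S100A12 (0.966) and KRTDAP (0.964). S100A8 was closest to S100A9, LIPE-AS1 (0.981) and FAM25A (0.974), and S100A9 to S100A8, LIPE-AS1 (0.980) and H2AJ (0.967). S100A12 was closest to SLURP1 (0.967), S100A7 and CALML5 (0.966). These r values were 0.899 or above without 5532, 5533 and 5549. LCN2 was closest to PRSS22 (0.914), KLK6 (0.906) and KLK12 (0.904), and RNASE7 to LCE2D (0.968), LCE1A (0.961) and UBL3 (0.950). DEFB4A was closest to SPRR2D (0.821), DEFB103A (0.820) and SPRR2B (0.806), of which DEFB103A is itself a beta-defensin with a near-identical copy. S100A7A was closest to SGPP2 (0.903), PPFIBP2 (0.876) and NOD2 (0.864), and these dropped to 0.454, 0.209 and 0.404 without the 3 libraries. LIPE-AS1 is an antisense gene, and the sources used here do not state whether counting used strand.

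Of the other S100 family, 10 of 16 listed genes were tested, and 1 was higher (S100A3) and 2 lower (S100A14 and S100A16) at an unadjusted p under 0.05 in KO. S100A14 averaged 12381 ± 2069 in KO and 16776 ± 7555 in WT tumours (log2 difference -0.37, SE 0.15, adjusted p = 0.331, limma), and S100A2 13496 ± 2975 in KO and 17889 ± 18766 in WT tumours. Without specimen 5533 the WT means were 14659 ± 1909 for S100A14 and 12505 ± 2163 for S100A2 (SD, n = 11), which for S100A2 is below the KO mean. Of 13 other antimicrobial genes tested, 4 were lower at an unadjusted p under 0.05 and 0 higher, with a list median of -0.07. These were PI3 (elafin, an elastase inhibitor, 12741 ± 6261 in KO and 21701 ± 12180 in WT tumours), the peptidoglycan-binding proteins PGLYRP3 and PGLYRP4, and WFDC12. CXCL14, a chemokine with antimicrobial activity and the most abundant of the list, averaged 44086 ± 10498 in KO and 46865 ± 23467 in WT tumours (log2 difference -0.03, SE 0.19). Without 5533 the WT means were 18432 ± 4702 for PI3 and 40355 ± 6812 for CXCL14, the last below the KO mean. No gene of these or the following lists passed the adjusted threshold in any comparison of KO with WT.

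Among receptors and inducers of these genes, values were higher for some and lower for others in KO. Of 10 receptors and binding partners tested, 0 had an unadjusted p under 0.05, and BSG (basigin, a receptor of S100A9) averaged 5870 ± 587 in KO and 5703 ± 611 in WT tumours. TLR4 was below 10 in every tumour and was not tested. Of 28 receptors and signalling genes that induce antimicrobial proteins, 4 were higher (among them IL1RAP, TLR3 and TLR2) and 5 lower (CEBPB, IL20RB, CEBPD, IL1R1 and IL20RA) at an unadjusted p under 0.05, with a list median of -0.05. CEBPB, which encodes a C/EBP factor, averaged 3485 ± 854 in KO and 4377 ± 527 in WT tumours (log2 difference -0.37, SE 0.13, adjusted p = 0.287, limma). IL20RB, a receptor subunit for the interleukin-20 subfamily, averaged 2725 ± 514 in KO and 3519 ± 586 in WT tumours. Of 8 inducing cytokine genes tested, 0 had an unadjusted p under 0.05; IL36RN, an antagonist of interleukin-36, averaged 1133 ± 448 in KO and 1029 ± 353 in WT tumours.

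Markers of other cells were read beside these results. Of 16 neutrophil and macrophage markers, 9 were used and 5 tested, and 0 had an unadjusted p under 0.05. Their summed level was 424 to 642 in KO and 477 to 673 in WT tumours, most of it CD68 (429 ± 65.1 in KO, 466 ± 68.4 in WT), which other cells also express. ITGAM and CXCR2 were below 10 in every tumour, and none of the 9 was at 0 in all tumours. The other 7 markers (CSF3R, FPR1, MPO, ELANE, MNDA, TYROBP and FCER1G) had no entry under these symbols among the genes with a deposited value. The handling of mouse reads is not stated, so these values of human genes do not give the amount of mouse myeloid cells. Of 9 suprabasal differentiation markers, 7 were lower in KO at an unadjusted p under 0.05, against 6.63% of all tested genes, with a list median of -1.12. DSG1 and IVL had log2 differences of 0.25 and 0.26. By line, 0 of the 9 were lower at that p in 2F7 (list median -0.23), 5 in 2B8 (-0.92) and 7 in 1G10 (-1.56). An example of the 7 lower in KO against WT is KRT10, a keratin of differentiating layers (103839 ± 47325 in KO, 168158 ± 53200 in WT). The summed level of the 9 was 51995 to 575021 in KO and 222512 to 729422 in WT tumours, and the part of these markers in the result was not tested. Of 10 basal and general keratinocyte markers, 3 were higher (DSP, COL17A1 and DSG3) and 0 lower at that p, with a list median of 0.33, and KRT14 averaged 344913 ± 40380 in KO and 289082 ± 61231 in WT tumours. Specimen 5533 lowered the WT means of these 3. Without it they were 99914 ± 26698 for DSP, 24540 ± 5877 for COL17A1 and 10056 ± 2119 for DSG3. The KO means were 128800 ± 24390, 29410 ± 5800 and 11980 ± 1202 in the same order. Of 6 fibroblast and endothelial markers tested, 1 (VWF) was lower at that p, and the summed level of the list was 3935 to 28246 in KO and 2430 to 16831 in WT tumours.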

How the data were processed

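Poly(A) RNA-seq of 23 xenograft tumours (directional kit, per the labels' protocols) was deposited by the authors as 1 table of normalized values per gene and tumour, a signal, that is read abundance divided by a factor per library. The submitters' processing notes list the tools STAR and DESeq2 and the build hg38; the sources used here do not name the counter, the strand setting or the handling of mouse reads. The deposited signal is not whole reads: 70.7% to 74.3% of low values (20 reads or fewer) fell within 0.02 reads of a whole multiple of the value of 1 read in 21 libraries, 76.6% in specimen 5532 and 83.9% in 5533. Estimated reads are the total divided by that value.

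Values were tested as log2(value + 1), which understates the change of low genes, for genes with a mean of at least 10, with limma 3.58.1 (R 4.3.3; trended prior, line as random block, Benjamini-Hochberg at 0.05). The consensus correlation within lines was 0.0077, so tumours counted as nearly independent. Each KO line was set against the average WT line. Line means and ratios were compared by exact permutation (Python 3.11.15), and correlations by 100000 permutations (numpy 2.4.6). The fit was tested on simulated data.

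All 8 genes are named, with up to 4 called genes per list and comparison or else the 2 with the highest mean, and the 3 most similar genes for each of the 8; list genes at an unadjusted p under 0.05 are named in addition, chosen after their values were seen. Some list genes are not reported here. The genes and lists were chosen with earlier results of these data known. Alternatives were other pseudocounts, filters and scalings, library quality weights, the line block, and leaving out tumours and lines. Leaving out specimens 5532, 5533 and 5549 together was chosen after seeing the data. Gene lengths came from GENCODE release 29 and promoters from RefSeq.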

Additional observations from a re-analysis of the deposited data

Results flagged for a closer look

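Within lines of 4 tumours, 50 sets of values were checked for a tumour far from the other 3, and 5 stood apart; chance alone does this in about 1 in 20 sets. S100A7 was 15.69 on the log2 scale in WT specimen 5536 of line 6C10, where the other 3 lay between 15.53 and 15.55, a line with very little spread. S100A7A was 10.29 in KO specimen 5549 of line 1G10, where the others lay between 12.78 and 13.28. S100A7A was 11.90 in WT specimen 5533 of line 6C9, the shallowest library, where the others lay between 13.33 and 13.58. DEFB4A was 5.77 in KO specimen 5545 of line 2B8, where the others lay between 7.34 and 7.36. The log2 ratio of S100A9 to S100A8 was 0.36 in WT specimen 5532 of line 6C9, where the others lay between 0.47 and 0.49.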

How the results depend on the processing

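No paired analysis was possible because the labels give each tumour its own specimen number and the genotypes share none. Over 15 alternatives for KO against WT besides leaving out single tumours, the sign of the log2 difference held for 7 of the 8 genes and turned for DEFB4A, to -0.085 without line 5B2 and -0.12 without line 2B8. The number of genes called in KO against WT was 1 and became 0 with rescaled totals, without 5532 and 5533, without these and 5549, on 6 line means, and without line 5B2, 6C10, 2B8 or 1G10. Library quality weights moved it to 738, with 7906 for line 2F7, 1045 for 2B8, 326 for 1G10, 1919 among WT lines and 6459 among KO lines, and S100A7, S100A12 and LCN2 were then called in KO against WT (limma adjusted p of 0.0247, 0.0153 and 0.0196); the cause was not tested. With no filter on low values 1 gene was called for 2F7 and 1 for 2B8.

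Leaving out each tumour in turn gave 0 to 1 genes called in KO against WT, 0 to 17 for 2B8 (17 without WT specimen 5529), 0 to 26 for 1G10 (26 without WT specimen 5531) and 0 to 1 among WT lines. In line 2F7 it gave -0.37 to 0.0698 for S100A7A, -1.20 to 0.011 for DEFB4A and -0.49 to 0.23 for RNASE7, in line 1G10 -0.027 to 0.58 for DEFB4A, and -0.00501 to 0.43 for the difference of line means of DEFB4A. RNASE7 in 2F7 also turned to 0.30 with quality weights and 0.26 without 5532 and 5533, with or without 5549. S100A8 in 1G10 was 0.042 without 5532, 5533 and 5549, and the ratio of S100A7A to S100A7 was -0.062 without 5532 and 5533. These turned values all had an adjusted p above 0.1 or an exact p of 1.0. With 3 lines on each side, genotype and line cannot be told apart beyond what the lines allow.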
